A study of Mus musculus with 6 samples.

Results

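The machinery that copies DNA was read here through 43 genes: the factors that license replication origins, the subunits of the replicative helicase, the polymerases and their accessory proteins, and the enzymes that supply deoxynucleotides. The genes were taken from a list of names. All 43 were found among the 18193 genes with a probe set of their own, under their present symbols. Where a gene had several probe sets, the brightest on average over the 6 arrays was used. RNA came from 6 spontaneously immortalized clones of mouse embryonic fibroblasts, 3 from FHL2-/- mice (knockout, here KO-E, KO-H and KO-J) and 3 from wild type mice (WT-E, WT-F and WT-I), with 1 Affymetrix array per clone. The letter E names a different clone in each genotype. The labels state neither strain, embryo age nor passage number, nor if each clone had its own embryo of origin, so p-values measure clonal spread. FHL2 is a LIM-domain adaptor protein that binds transcription factors and integrins. The question is how the RNA of fibroblasts that lack it compares with that of fibroblasts that have it. Fhl2 was lower in all knockout clones (6.01 to 6.57 against 8.57 to 9.88), with a fall by 3.02 (SE 0.35, adjusted p = 0.00400). The labels do not place its probe set inside or outside the deleted part.

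Replication starts in steps that the cell cycle keeps apart. In G1 the origin recognition complex (ORC), Cdc6 and Cdt1 load the ring of Mcm2 to Mcm7 onto DNA, and geminin blocks Cdt1 once this is done. At the start of S phase the Cdc7-Dbf4 kinase and cyclin-dependent kinases recruit Cdc45 and the GINS complex, which turn the ring into an active helicase. Many of these genes are transcribed in a wave at the G1/S boundary under the E2F transcription factors, so their RNA in an unsorted culture depends on how many cells are cycling as well as on the RNA per cell. On these arrays fewer cells with a transcript and less of it per cell cannot be told apart.

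Replication genes were lower in knockout clones more often than higher. The log2 difference (knockout minus wild type throughout, with the standard error, SE, from limma and n = 3 clones in each group) lay below 0 for 38 of the 43 genes (35 after repeated quantile normalization, 33 without WT-E) and above 0 for 5, with a median of -0.55 against 0.04 over all genes. With a limma adjusted p under 0.05 as the threshold, 14 of the 43 fell (32.6%, against 10.0% of all genes tested), 0 rose (against 9.04% of all genes) and 29 did not pass; in either direction 19.0% of all genes passed. At an unadjusted p under 0.05, 24 of the 43 were reached (against 33.2% of all genes), 1 of them higher (against 16.7%). In 22 of the 43 (51.2%) all 3 knockout clones lay below all 3 wild type clones, which held for 18.2% of all genes, and in 0 of the 43 did they lie above, which held for 20.7%. For 39 of the 43 genes the mean over the 6 arrays reached 5.92, the median over all gene means (here called the median level). Among genes at that level 16 of the 39 fell, against 19.0% of the 9097 genes fitted there. The mean covers both genotypes, so a gene can reach that level through 1 of them. Cdc45, 1 of the falls, did so through wild type clones (6.54 to 6.76, against 5.14 to 5.50 in knockout clones).

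**Figure D1:**
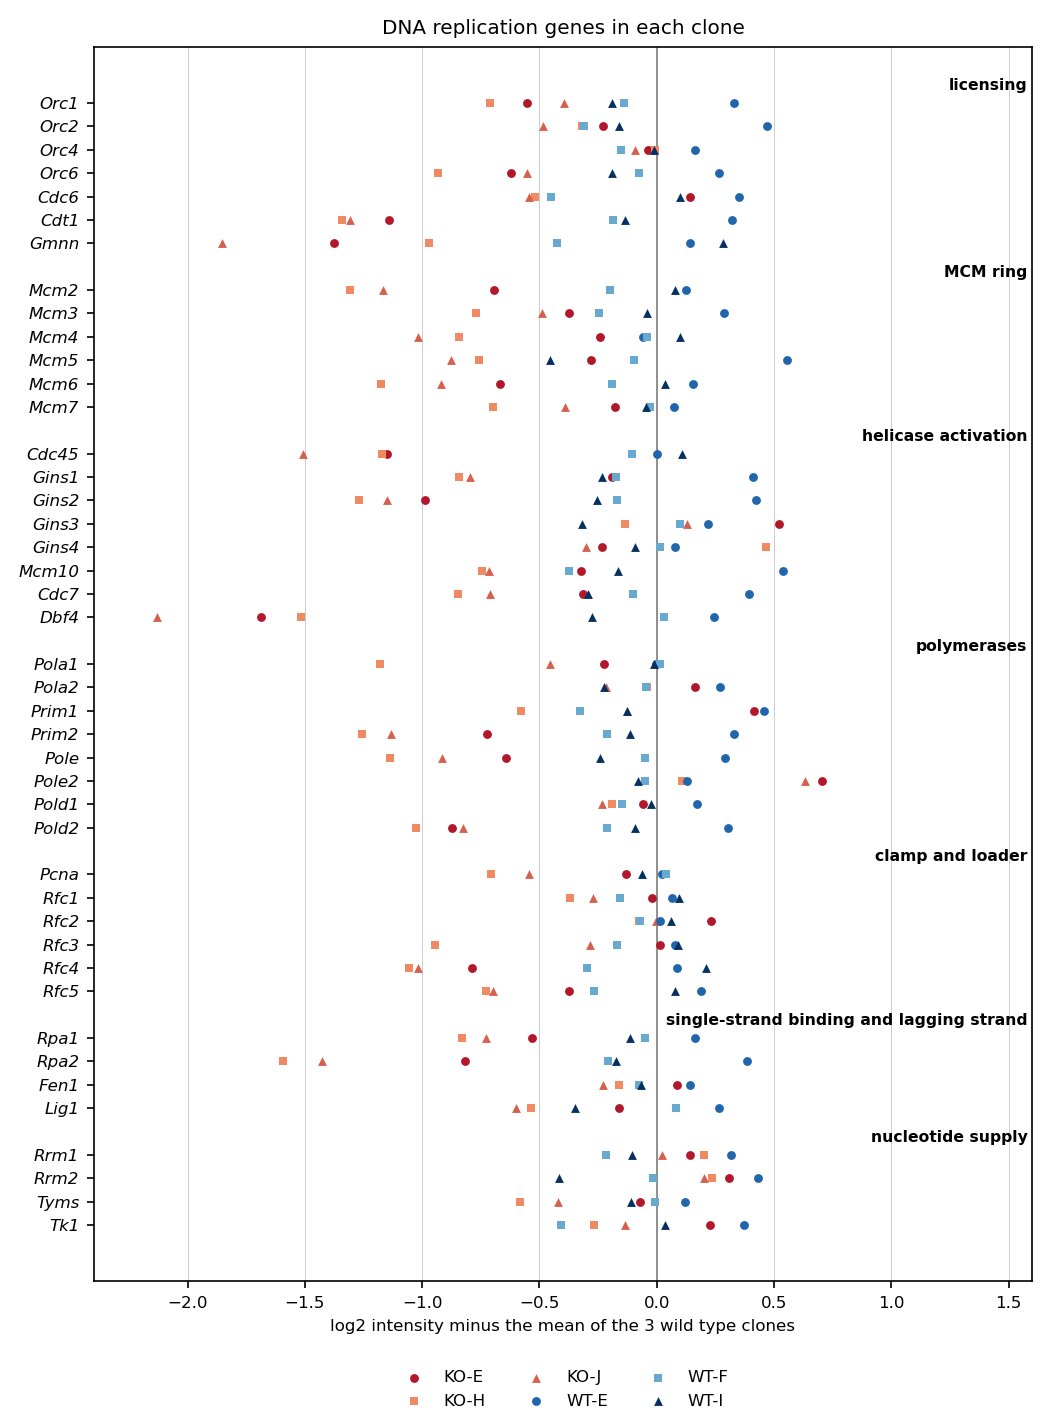
Log2 intensity of each of the 43 replication genes in each clone (horizontal axis) minus the mean of the 3 wild type clones, grouped by role; red symbols are knockout clones and blue symbols wild type clones. Red symbols lie left of all blue ones in 22 genes, Dbf4, Gmnn and Cdt1 among them, and are mixed with blue ones for the nucleotide supply genes.

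The size of the shift depended on the clone. Among knockout clones, KO-E held the highest value in 35 of the 43 genes, and the median of its values minus the wild type mean was -0.24, against -0.74 in KO-H and -0.54 in KO-J. Among wild type clones, WT-E held the highest value in 34 of the 43 genes, with a median of 0.24 against -0.15 in WT-F and -0.09 in WT-I. The deposited values of WT-E carry more decimals than those of the other clones; the sources used here do not say if that array was processed separately, and the part of this in the results was not tested. Over all genes KO-E was the highest of its group in 33.8% and WT-E in 32.6%. KO-E still lay below every wild type clone in 23 of the 43 genes (30.9% of all genes), KO-H in 35 (32.3%) and KO-J in 34 (31.6%). Without WT-E, 5 of the 43 genes passed, all lower (4.86% of all genes were called lower in that fit), and the median was -0.39; without KO-J, 7 passed, all lower (5.07% of all genes). The 5 genes that passed whichever clone was left out were Cdt1, Cdc45, Gins2, Dbf4 and Pold2.

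Promoter sequence from both sides of the transcription start is shown for replication genes that fell and others that did not pass. E2F sites and the cell cycle homology region (CHR) are the elements best known for periodic transcription of such genes. RefSeq promoter windows of 300 bases (250 before to 50 after the start, assembly GRCm38.p6) were found for 35 of the 43 genes, the others being Gmnn, Mcm4, Gins1, Gins2, Gins4, Prim2, Pole and Rfc2. An E2F-type motif (TTTCCCGC, TTTCGCGC, TTTGCCGC or TTTGGCGC on either strand, where matches may overlap each other) was present for 13 of the 35 genes, or 37.1%, against 3.81% of the 14452 measured genes with a window; it was in 2.26% of all 32851 windows. In the following 80-base stretches, read 5' to 3' on the strand of the gene, capitals mark this motif. The marked matches of Cdt1, Mcm3, Mcm7 and Pole2 lie after the start, those of Mcm5 and Mcm6 before it.
Cdt1 (chr8:122567985-122568064, plus strand): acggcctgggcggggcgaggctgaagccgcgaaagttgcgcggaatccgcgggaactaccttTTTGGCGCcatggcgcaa
Mcm3 (chr1:20820263-20820342, minus strand): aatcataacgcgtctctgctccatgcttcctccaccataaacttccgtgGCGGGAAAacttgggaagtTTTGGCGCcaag
Mcm5 (chr8:75109322-75109401, plus strand): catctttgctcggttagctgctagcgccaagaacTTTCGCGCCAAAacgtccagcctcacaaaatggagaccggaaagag
Mcm6 (chr1:128359739-128359818, minus strand): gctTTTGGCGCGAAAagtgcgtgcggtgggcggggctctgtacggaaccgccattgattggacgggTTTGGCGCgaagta
Mcm7 (chr5:138171834-138171913, minus strand): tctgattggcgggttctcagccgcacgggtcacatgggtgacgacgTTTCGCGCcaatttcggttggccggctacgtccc
Pole2 (chr12:69228141-69228220, minus strand): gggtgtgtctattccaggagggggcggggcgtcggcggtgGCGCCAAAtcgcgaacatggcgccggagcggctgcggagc
Of the 10 genes with a window that fell, 2 had the motif (Cdt1 and Mcm6), and of the 25 with a window that did not pass, 11 had it. Mcm6 had 3 matches, the first pair overlapping in the run TTTGGCGCGAAA, while Pole2, which had 1, was the replication gene with the highest positive difference. The CHR motif TTTGAA, on either strand, was present for 7 of the 35 genes (20%, against 15.7% of measured genes with a window and 17.9% of all windows). It was present for 4 of the 10 that fell and for 3 of the 25 that did not pass (Gins3, Cdc7 and Fen1). Capitals mark it, as TTTGAA or its reverse complement TTCAAA, in the next stretches, of 3 genes that fell. The marked match of Cdc45 lies after the start, that of Mcm2 before it and that of Dbf4 across it.
Dbf4 (chr5:8422677-8422756, minus strand): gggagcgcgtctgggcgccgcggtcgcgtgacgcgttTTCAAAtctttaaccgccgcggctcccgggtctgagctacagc
Cdc45 (chr16:18811923-18812002, minus strand): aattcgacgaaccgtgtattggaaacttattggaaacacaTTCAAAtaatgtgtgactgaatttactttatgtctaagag
Mcm2 (chr6:88898808-88898887, minus strand): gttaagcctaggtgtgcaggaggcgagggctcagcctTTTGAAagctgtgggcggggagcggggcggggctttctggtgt
The motif CCAAT was in 22 of the 35 (62.9%, against 42.0% of measured genes with a window and 37.4% of all windows). These matches describe letters in a window and were not tested.

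Among the licensing factors, all 7 differences lay below 0 (that of Orc4 turned to 0.01 after repeated quantile normalization), and 3 genes fell. Cdt1, which loads the Mcm ring with Cdc6, read 7.48, 7.28 and 7.32 in KO-E, KO-H and KO-J, the order kept for knockout values below, and 8.94, 8.44 and 8.49 in WT-E, WT-F and WT-I, likewise. All knockout values lay below the lowest wild type value, and Cdt1 fell by 1.26 (SE 0.16, adjusted p = 0.00511), or 2.4-fold. With its 3 probe sets averaged, 1 of them of low signal, the difference was -0.81. Gmnn encodes geminin, the protein that holds Cdt1 back after S phase has begun. It read 6.64, 7.04 and 6.16 in knockout and 8.15, 7.58 and 8.29 in wild type clones, again without overlap, though the knockout clones spread by nearly a log2 unit. Gmnn fell by 1.4 (SE 0.28, adjusted p = 0.0184). Its call was lost when any of 4 clones was left out, namely KO-E (adjusted p = 0.0551), KO-J (0.0513), WT-E (0.0756) or WT-I (0.0613). The inhibitor and its target were thus both lower, with similar differences.

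All 4 listed subunits of ORC had a difference below 0, Orc4 only in some treatments of the values, and 1 fell. Orc6 fell by 0.70 (SE 0.17, adjusted p = 0.0319), with 7.28 to 7.66 in KO clones against 8.02 to 8.48 in WT clones, and passed in 1 of the 6 fits that leave out a clone, that without KO-H. Orc1, the subunit whose level follows the cell cycle, was also read lower in every knockout clone (4.28 to 4.60 against 4.80 to 5.32), with a difference of -0.55 that did not pass (SE 0.17, adjusted p = 0.0701), though it passed after quantile normalization was repeated (-0.62, adjusted p = 0.0477). Both probe sets of Orc1 lay below the median level. The other differed by 0.19 (SE 0.11), and their average by -0.18 (adjusted p = 0.375). Orc2 differed by -0.34 (SE 0.21), and its wild type values (7.46 to 8.24) overlapped those of knockout clones (7.29 to 7.54); without WT-E it was -0.11. Orc4 gave unlike answers by probe set. The one with the highest mean differed by -0.04 (SE 0.11), but 2 others of the 4 differed by 0.78 (SE 0.17) and 0.64 (SE 0.13), with limma adjusted p of 0.0250 and 0.0235 over all probe sets, so the direction for Orc4 turned with the probe set. Cdc6, the ATPase that completes loading, differed by -0.31 (SE 0.27) and overlapped between genotypes; leaving out single clones gave -0.53 (without WT-F or KO-E) to -0.13 (without WT-E).

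All 6 genes of the Mcm ring, the motor of the replicative helicase, were lower on average in knockout clones (median -0.67, from -1.06 to -0.42), and 2 fell. Mcm2 read 8.91, 8.29 and 8.43 in knockout and 9.72, 9.40 and 9.68 in wild type clones, and fell by 1.06 (SE 0.19, adjusted p = 0.0130). Mcm6 read 9.15, 8.64 and 8.90 against 9.97, 9.63 and 9.86, and fell by 0.92 (SE 0.16, adjusted p = 0.0133). Neither overlapped between genotypes. Without WT-E neither passed (adjusted p = 0.0573 and 0.0561), and Mcm2 also did not pass without KO-J (0.0526). Mcm3, Mcm4 and Mcm7 also had no overlap, with differences of -0.54 (SE 0.18), -0.70 (SE 0.21) and -0.42 (SE 0.15) that did not pass. Mcm4 passed without KO-E (-0.93, adjusted p = 0.0147), whose value of 8.85 lay close to the wild type values of 9.04 to 9.20, after median centring of the arrays (-0.75, adjusted p = 0.0487) and with its 2 probe sets averaged (-0.84, adjusted p = 0.0194). Mcm7 passed with its 4 probe sets averaged in a fit restricted to probe sets at or above the median level (-0.56, adjusted p = 0.0420). Mcm5 was the subunit whose genotypes overlapped, since WT-I (7.93) and WT-F (8.29) lay near KO-E (8.10), and its difference was -0.64 (SE 0.29), or -0.36 without WT-E. Mcm3, Mcm5, Mcm6 and Mcm7 are the ring genes whose windows held the E2F-type motif shown above.

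**Figure D2:**
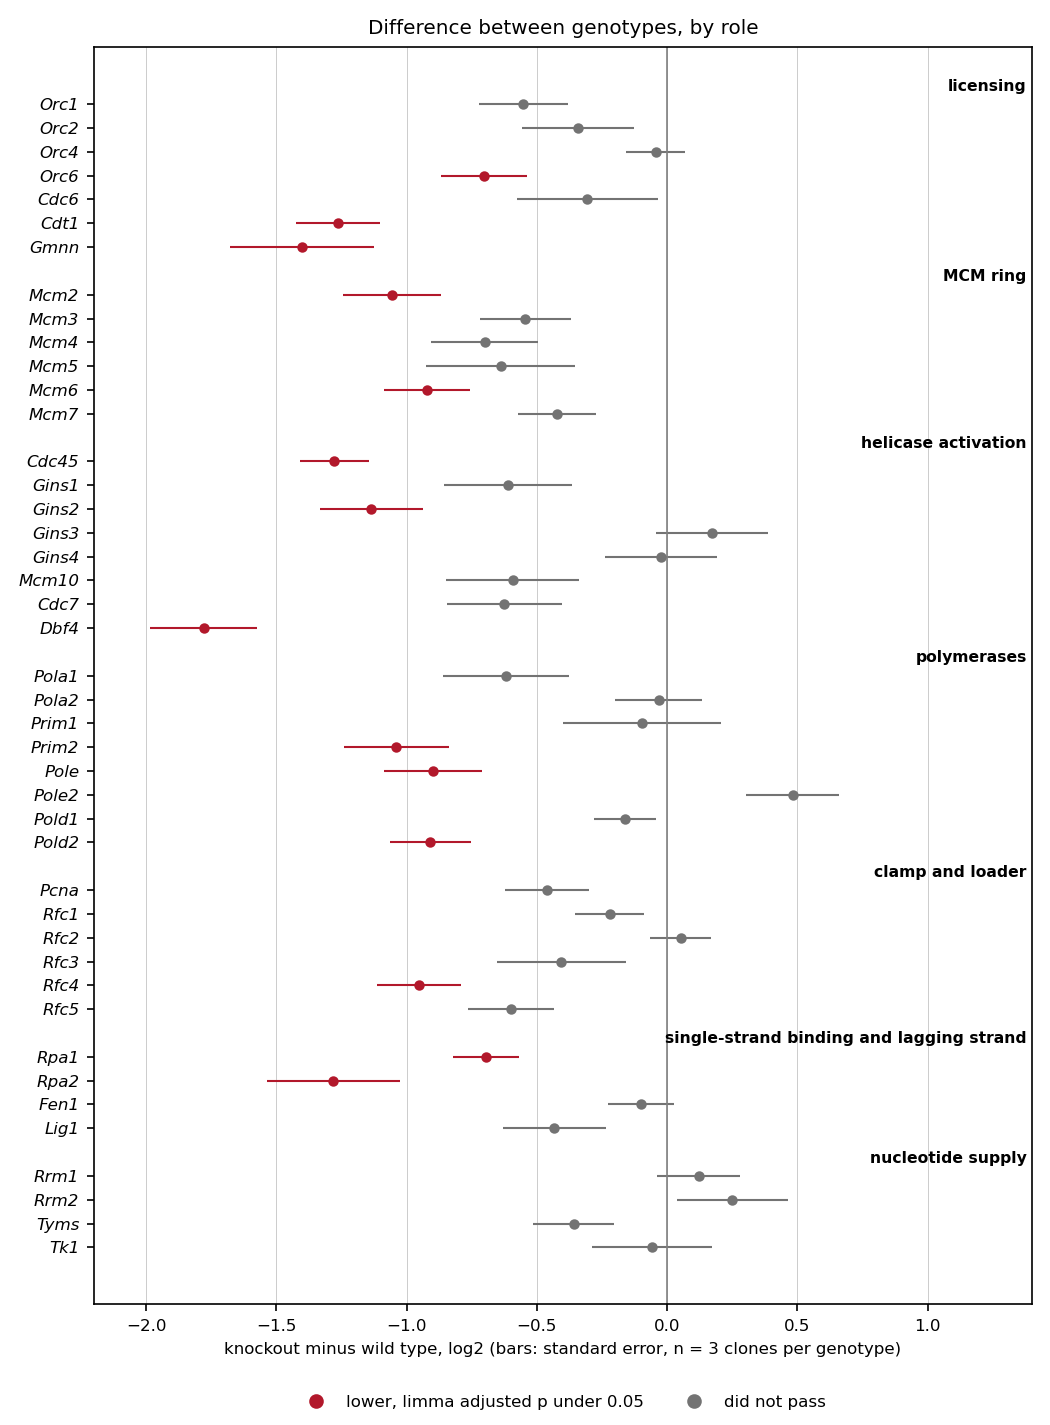
Knockout minus wild type difference on the log2 scale (horizontal axis) for the 43 replication genes, grouped by role, with bars for the SE of the limma fit; red points are the 14 genes that fell with an adjusted p under 0.05. Differences run from -1.78 for Dbf4 to 0.48 for Pole2, and those of the nucleotide supply genes lie between -0.36 and 0.25.

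Of the 8 genes that turn the loaded ring into a moving helicase, 3 fell. Dbf4, the regulatory subunit that the Cdc7 kinase needs for activity, had the most negative difference of all 43 genes. It read 7.53, 7.70 and 7.08 in knockout and 9.46, 9.24 and 8.94 in wild type clones, so that Dbf4 fell by 1.78 (SE 0.20, adjusted p = 0.00388), or 3.43-fold. With both probe sets averaged the difference was -1.0 (adjusted p = 0.0143), the other probe set having read 2.65 to 3.42 in every clone. Cdc7 itself differed by -0.62 (SE 0.22, adjusted p = 0.102), with values of 5.71 to 6.24 in KO clones and 6.26 to 6.95 in WT clones that just failed to overlap. The other probe set of Cdc7, of low signal, differed by -0.07 (SE 0.14), and the average of both by -0.35. Cdc45, which rides with the ring at the fork, read 5.50, 5.48 and 5.14 against 6.65, 6.54 and 6.76, and fell by 1.28 (SE 0.13, adjusted p = 0.00299), or by 0.56 with both probe sets averaged.

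The 4 subunits of GINS, which bind one another in equal numbers, did not move together. Gins2 read 7.32, 7.04 and 7.16 in knockout and 8.73, 8.14 and 8.05 in wild type clones, and fell by 1.14 (SE 0.20, adjusted p = 0.0126). Gins1 differed by -0.61 (SE 0.25, adjusted p = 0.140; -0.41 without WT-E), its KO-E (5.85) lying within the wild type values (5.81 to 6.45). Gins3 and Gins4 overlapped between genotypes and differed by 0.17 (SE 0.22) and -0.02 (SE 0.21). For Gins4 the highest value of the 6 was that of KO-H (8.92), while KO-E and KO-J (8.22 and 8.15) lay below the wild type clones (8.36 to 8.53). Mcm10, which helps the helicase to separate strands, differed by -0.59 (SE 0.26), and its highest value was that of WT-E (7.18), without which the difference was -0.32. With its probe sets averaged it was -0.22.

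Among the 8 polymerase genes 3 fell, and within each complex some subunits fell while others did not pass. In the polymerase alpha-primase complex, which starts new strands, Prim2, the large primase subunit, read 6.27, 5.74 and 5.86 in knockout and 7.32, 6.78 and 6.88 in wild type clones. It fell by 1.04 (SE 0.20, adjusted p = 0.0173), or by 0.66 with its 3 probe sets averaged, and its call was lost without KO-J (adjusted p = 0.0653) or WT-E (0.0529). The catalytic primase Prim1 and the B subunit Pola2 overlapped, with differences of -0.10 (SE 0.30) and -0.03 (SE 0.17). Pola1, the catalytic polymerase, was very even in wild type clones (7.57 to 7.59) and lower but uneven in knockout clones (7.36, 6.40 and 7.13), with a difference of -0.62 (SE 0.24; -0.34 without KO-H) that did not pass.

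The leading and lagging strand polymerases showed the same unevenness. Pole, the catalytic subunit of the leading strand enzyme, read 6.95, 6.45 and 6.67 in knockout and 7.88, 7.54 and 7.34 in wild type clones. It fell by 0.90 (SE 0.19, adjusted p = 0.0217). The call for Pole went when the fit omitted KO-J (adjusted p = 0.0735), WT-E (0.0669) or WT-F (0.0649). Its partner Pole2 lay the other way: it read 7.01, 6.41 and 6.94 in knockout and 6.44, 6.26 and 6.23 in wild type clones, so KO-E and KO-J were above all wild type clones and KO-H was among them. The difference of Pole2 was 0.48 (SE 0.18, adjusted p = 0.115), and it passed as higher without KO-H (0.67, adjusted p = 0.00914) and with array weights (0.60, adjusted p = 0.0209). Of the lagging strand enzyme, the accessory subunit Pold2 read 8.03, 7.87 and 8.07 against 9.20, 8.69 and 8.81 and fell by 0.91 (SE 0.16, adjusted p = 0.0120). The catalytic subunit Pold1 differed by -0.16 (SE 0.12); its other probe set differed by -0.50 (SE 0.13, limma adjusted p = 0.0492 over all probe sets).

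Of the sliding clamp and its loader, 1 of 6 genes fell. Pcna, the clamp that tethers polymerases to DNA, read 10.86, 10.28 and 10.44 in knockout and 11.01, 11.03 and 10.92 in wild type clones. The groups did not overlap, but the difference of -0.46 (SE 0.16) did not pass (adjusted p = 0.0987), and it passed without KO-E (-0.62, adjusted p = 0.0322). The loader subunit Rfc4 read 7.01, 6.74 and 6.78 against 7.88, 7.5 and 8.01, and fell by 0.95 (SE 0.16, adjusted p = 0.0114). The call for Rfc4 went when the fit omitted WT-E (adjusted p = 0.0511). Rfc5 differed by -0.60 (SE 0.16) and lay at the threshold (adjusted p = 0.05002), so that it passed under 5 other treatments of the values and without WT-F (-0.73, adjusted p = 0.0451). The other subunits of the loader differed less. Rfc1, its large subunit, differed by -0.22 (SE 0.13), Rfc2 by 0.05 (SE 0.12) and Rfc3 by -0.41 (SE 0.25; -0.14 without KO-H and -0.62 without KO-E), and each overlapped between genotypes.

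Both subunits of the single-strand binding protein RPA that were listed fell. Rpa1, the large subunit, read 9.75, 9.45 and 9.55 in knockout and 10.44, 10.23 and 10.17 in wild type clones, and fell by 0.70 (SE 0.13, adjusted p = 0.0145). Rpa2 read 6.57, 5.79 and 5.96 against 7.77, 7.18 and 7.21, and fell by 1.28 (SE 0.25, adjusted p = 0.0186). Neither overlapped, and both calls were lost without KO-J (adjusted p = 0.0562 and 0.0689) or WT-E (0.0525 and 0.0620). The enzymes that finish lagging strand fragments did not pass. The flap nuclease Fen1 differed by -0.10 (SE 0.13), or by -0.44 (SE 0.12) at its other probe set, and the ligase Lig1 by -0.43 (SE 0.20).

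The nucleotide supply genes had the median difference nearest to 0 of the 7 roles (0.03). None of the 4 passed in limma, 0 reached an unadjusted p under 0.05, and all 4 overlapped between genotypes. Rrm1, the large subunit of ribonucleotide reductase, read 9.71, 9.78 and 9.60 in knockout and 9.89, 9.36 and 9.47 in wild type clones, a difference of 0.12 (SE 0.16). Its S phase partner Rrm2 read 8.72, 8.65 and 8.62 against 8.85, 8.40 and 8.0, a difference of 0.25 (SE 0.21; 0.47 without WT-E and 0.04 without WT-I), and the 2 other probe sets both differed by 0.48. For these genes every knockout clone lay above WT-F and WT-I, and WT-E lay higher still. Tk1, thymidine kinase of the salvage pathway, differed by -0.06 (SE 0.23). Tyms, thymidylate synthase, was read by 4 probe sets that all lay below the median level, the one used at 4.24 to 4.95, so its difference of -0.36 (SE 0.16) rests on weak signal. No test of the difference between roles was made.

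**Figure D3:**
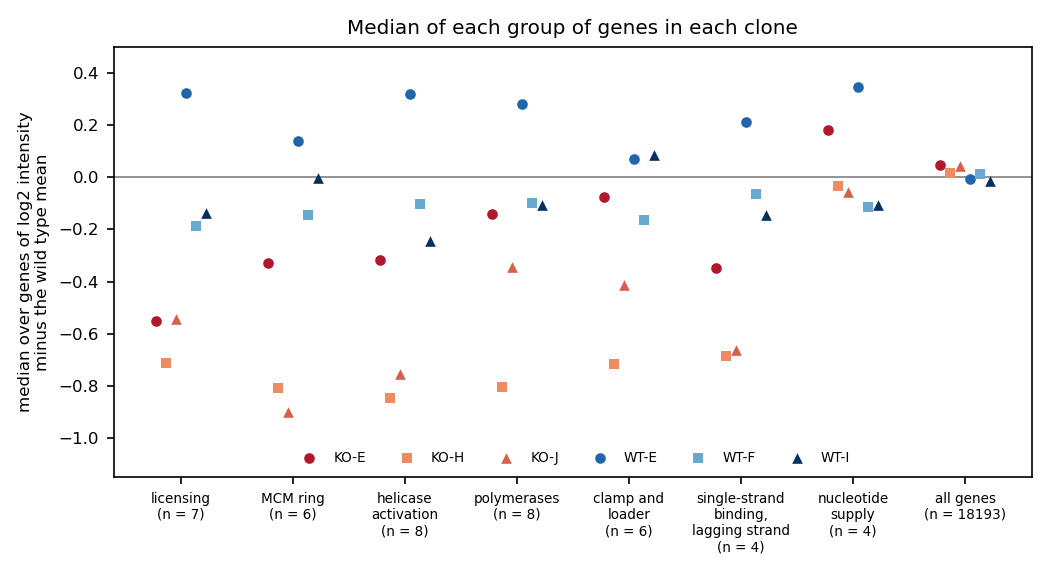
Median over the genes of each role (and over all 18193 genes) of log2 intensity minus the mean of the 3 wild type clones, with 1 symbol per clone. KO-H and KO-J lie below every wild type clone for each role except nucleotide supply, where the medians of the 6 clones run from -0.12 to 0.35.

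By role and clone, KO-H was lowest for each role except the Mcm ring and nucleotide supply. Its median minus the wild type mean was -0.80 for polymerases and -0.72 for the clamp and its loader, where KO-E lay at -0.14 and -0.08. For helicase activation and for single-strand binding and the lagging strand, KO-H (-0.85 and -0.68) lay near KO-J (-0.75 and -0.66). For the licensing factors the 3 knockout clones were closer, at -0.55, -0.71 and -0.54. For the Mcm ring they stood at -0.33, -0.81 and -0.90. KO-H differed from the other knockout clones in further ways: it alone read Xist at 9.82, against 4.69 to 5.11 elsewhere, and the Y-linked Eif2s3y at 2.92, against 7.47 to 8.79. The counts for replication genes without KO-H were 14 lower (against 13.4% of all genes in that fit) and 1 higher (against 12.7%), the latter being Pole2.

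Most genes were read by more than 1 probe set, and these mostly gave the same direction. Of the 96 probe sets of the 43 genes, 67 lay at or above the median level, and with every probe set tested 24 of these passed as lower and 2 as higher, both of Orc4. The share over all probe sets is not given here, and of genes fitted at that level 19.0% were called lower. Probe sets of the same gene are not independent readings. In 18 of the 20 genes with at least 2 such probe sets, all differences had the same sign, the others being Orc4 and Rrm1. Mcm2, Cdt1, Prim2 and Rpa2 gave nearly equal differences at both probe sets. For Mcm6 the probe sets differed, at -0.92 (SE 0.16) and -1.36 (SE 0.20).

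**Figure D4:**
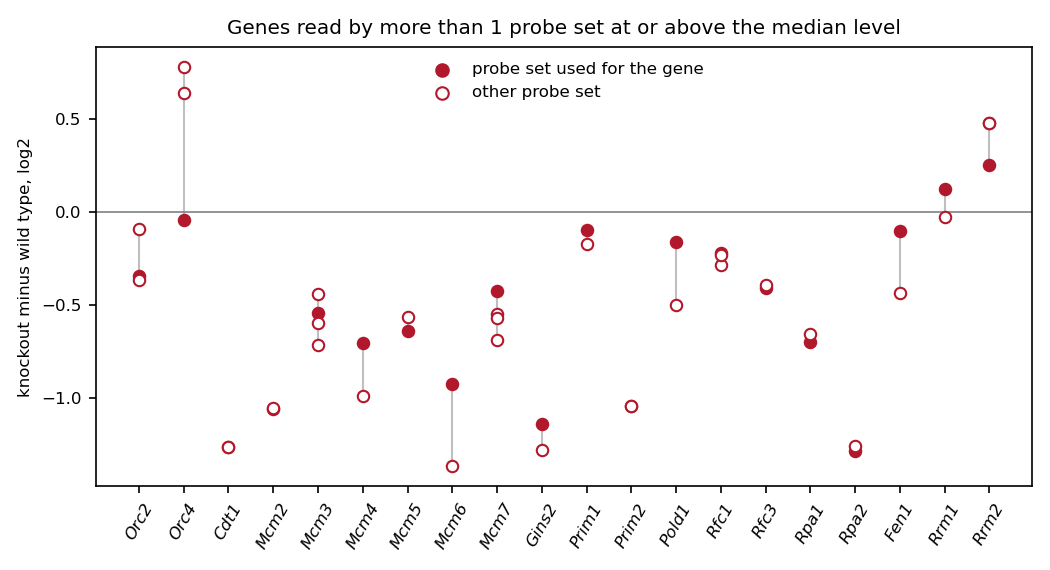
Knockout minus wild type difference on the log2 scale (vertical axis) at each probe set at or above the median level, for the 20 genes with at least 2 of them; filled points are the probe sets used for the gene. Points of a gene lie on the same side of 0 except for Orc4 and Rrm1.

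Other genes of DNA replication were read from a second list of 49 names, of which 47 were measured. Of these 14 fell (29.8%, against 10.0% of all genes), 1 rose (2.13%, against 9.04% of all genes) and 32 did not pass. Their median was -0.49, against 0.04 over all genes, and their share of falls was near that of the 43 genes. Clspn, the checkpoint mediator claspin that travels with the fork, fell by 1.67 (SE 0.29, adjusted p = 0.0124), or by 1.06 with its probe sets averaged. It read 5.47, 4.74 and 5.28 in knockout and 7.39, 6.59 and 6.53 in wild type clones. Tipin of the fork protection complex fell by 0.74 (SE 0.11). Mtbp, which acts in origin firing, fell by 1.48 (SE 0.14). Chaf1b, a subunit of the histone chaperone CAF-1, fell by 1.07 (SE 0.15), or by 0.58 with its probe sets averaged, and the maintenance methyltransferase Dnmt1 fell by 0.81 (SE 0.16). The others that fell were Dscc1, of an alternative clamp loader (-1.31, SE 0.32), Rnaseh2b, of ribonuclease H2 (-0.87, SE 0.16), the nuclease Exo1 (-0.91, SE 0.22), the helicase Recql4 (-1.04, SE 0.28), Topbp1, of origin firing (-0.62, SE 0.14), and the ubiquitin ligase Rfwd3 (-0.75, SE 0.16). Recql4 passed in 0 of the 6 fits that leave out a clone, Exo1 in 1, and Dscc1 and Topbp1 in 2 each. Rfwd3 and Dnmt1 passed in 3 each and Rnaseh2b in 5. Dscc1, Exo1 and Recql4 lay below the median level. With probe sets averaged Dscc1, Exo1 and Topbp1 did not pass (-0.64, -0.53 and -0.40). Calls that held whichever clone was left out were those of Mtbp, Clspn, Tipin, Chaf1b, Dck and Dut.

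Of the nucleotide supply genes in this second list, 3 of 8 fell, against 10.0% of all genes. The contrast with the nucleotide supply genes of the first list was not tested. Dck, deoxycytidine kinase of the salvage pathway, read 6.05, 6.28 and 5.81 in knockout and 7.70, 7.15 and 7.48 in wild type clones, and fell by 1.4 (SE 0.19, adjusted p = 0.00583). Dut, which removes dUTP, fell by 0.88 (SE 0.13), but its other probe set, of low signal, differed by 0.33 (SE 0.12) and the average of both by -0.27. Rrm2b, the ribonucleotide reductase subunit induced by p53, fell by 0.71 (SE 0.18, adjusted p = 0.0391), with differences of -0.83 to -0.71 at its 4 probe sets; the call was lost without any clone other than KO-H and after repeated quantile normalization. The gene that rose was Orc5, by 0.51 (SE 0.12, adjusted p = 0.0364). This call went when the fit omitted any clone other than KO-H, with a trended robust prior and after median centring of arrays. Orc3 differed by 0.37 (SE 0.12, adjusted p = 0.0845) and passed as higher with its probe sets averaged, Rpa3, the small RPA subunit, by -0.47 (SE 0.26; -0.18 without KO-H), and Top2a, the topoisomerase of S and G2 phase, by 0.01 (SE 0.30), a value whose sign turned with the scaling.

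Of 2 genes that report on cycling, Mki67 differed by -0.49 (SE 0.24, adjusted p = 0.209) (-0.32 when WT-E was left out), and the inhibitor Cdkn1a rose by 3.70 (SE 0.27, adjusted p = 0.00131); their part in the replication values was not tested. The median log2 value of an array was 4.44 to 4.46 for wild type and 4.51 to 4.54 for knockout. Centring the arrays gave 16 falls (11.4% of all genes were called lower in that fit) and a median of -0.60 over the 43 genes. All 10 fibroblast markers lay at or above the median level, with a summed level (log2 of the summed linear values) of 15.98 to 16.05 in KO clones against 15.67 to 15.85 in WT clones. Of other cell types, 1 of 8 leukocyte markers (Csf1r), 0 of 7 endothelial, 2 of 6 epithelial (Epcam and Krt19) and 0 of 6 skeletal muscle markers reached it. Among fibroblast markers Dcn (2.04) and Pdgfra (1.76) rose and Thy1 (-1.34) and Pdgfrb (-0.64) fell. Summed endothelial markers were higher in knockout clones (7.62 to 9.13 against 6.48 to 7.31). Of these Tek alone passed: it read 8.36, 4.68 and 8.91 in knockout and 3.27, 3.31 and 2.54 in wild type clones. Summed epithelial markers were lower (8.14 to 8.24 against 8.48 to 9.0), where Krt19 fell (-3.05) and Epcam rose (0.43). By contrast, leukocyte (7.92 to 8.46 against 7.84 to 8.06) and muscle (6.42 to 6.56 against 6.40 to 7.11) sums overlapped. Their part in the replication values was not tested.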

How the data were processed

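The 6 arrays held biotin-labelled RNA, 1 clone each. The deposited values are log2 intensities of 45101 probe sets that the authors made with RMA, per the submitters' processing notes; its version and settings: not given in the sources used here. WT-E is written with more decimals than the other clones, and separate processing of that array is possible. Groups and clone letters came from the titles. Control probe sets (64) and probe sets with several symbols (932) or none (9160) were left out. Probe sets were named through the platform table, with 34741 of 34945 found by gene ID in RefSeq (GRCm38.p6). Knockout and wild type were compared over all 18193 genes with limma 3.58.1 (R 4.3.3; lmFit, eBayes) and Benjamini-Hochberg adjustment at 0.05, without a filter on low values. Arrays have no read depth; the number of arrays limits the precision (4 residual degrees of freedom, median SE 0.14 over all genes and 0.19 over the 43). On simulated data of 18193 genes for this comparison, with independent noise per gene, limma found 82% of the genes shifted 4-fold and 53% of those shifted 2-fold. Of its calls, 1.46% were false. The simulation shifted a far smaller share of genes than the 19.0% that passed in the data, so these rates need not hold for the real comparison.

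The genes and lists were chosen with earlier results of these data known, and no list was tested as a set. The text names all 43 genes, the genes of the second list that passed, Rrm2b, Top2a, Dnmt1, Orc3, Orc5, Rpa3, Fhl2, Mki67 and Cdkn1a by rule, and Xist, Eif2s3y and 8 cell markers after their values were seen. The 2 other names of the second list were not analysed here. Marker levels were summed on the linear scale and are given as log2. Plots were made in Python 3.11.15 (matplotlib 3.10.9).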

Additional observations from a re-analysis of the deposited data

How the results depend on the processing

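Of the 14 replication genes that fell, the direction held under every alternative in which they were measured. The count that fell was 13 to 17 across other treatments of the values, where 8.96% to 19.2% of the genes fitted were called lower. These were the trended robust prior, repeated quantile normalization, median centring, the filter on low values, averaged probe sets and every probe set tested. The others left out probe sets with the suffix _x_at, _s_at or _a_at, or used array weights. Of the 43 genes, 39 were fitted where low signal was filtered and 38 without the suffixed probe sets. With at least 2-fold required the count was 8, against 4.51% of all genes called lower (1495 genes passed in either direction). Leaving out 1 clone gave 5 to 15 genes passing, 5 to 14 of them lower and 0 to 1 higher, with 1661 to 4750 over all genes. In these fits 4.86% to 13.4% of all genes were called lower. The lowest counts of the 43 came without WT-E and without KO-J. A replication gene passed as higher (1 gene) under 4 alternatives: Orc4 without suffixed probe sets (0.78) and with the mean of probe sets at or above the median level (0.46), an alternative chosen after seeing the data, and Pole2 with array weights and without KO-H. Orc4 thereby changed sign, as did Dut (0.33) without suffixed probe sets, since the probe set read is then another. The median difference of the 43 genes ran from -0.63 to -0.39 over all alternatives. Averaging probe sets lost the calls of Dut (-0.27), Dscc1 (-0.64), Exo1 (-0.53) and Topbp1 (-0.40). Top2a, at 0.01, changed sign under several alternatives without passing. No paired analysis was possible because the genotypes share only the clone letter E, and the labels tie no knockout clone to a wild type clone. With 3 clones a group, calls near the threshold depend on single clones.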
